A study of Homo sapiens with 32 samples.

Results

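Chromosome 17 carried 44427 of the 2015148 uracil-DNA regions that the 15 replicate region files of U-DNA-Seq list. These regions were chosen by the chromosome name in the first column of each file, and the chromosome itself was chosen by a measured value, since its covered share averaged over the drug-treated libraries was the highest of chromosomes 1 to 22 and X. The covered share is the percentage of a chromosome's known bases that lie inside regions. It averaged 29.1% ± 11.1 (SD, n = 8) on chromosome 17 after drug treatment, and the next chromosomes in order were chromosome 22 with 27.9% ± 7.51 and chromosome 1 with 24.2% ± 4.02. These values made the choice and are given as a description with no test. Per library, chromosome 17 ranked first in all 4 raltitrexed libraries and in 1 of the 4 5FdUR libraries. It ranked 3rd in 5FdUR_UGI replicate 2, 13th in 5FdUR_UGI_MMR replicate 1 and 21st in 5FdUR_UGI_MMR replicate 2, so the name of the densest chromosome did not hold in those 3 libraries.

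U-DNA-Seq pulls uracil-containing DNA fragments down with a catalytically inactive, FLAG-tagged uracil-DNA glycosylase sensor (FLAG-ΔUNG) and sets the sequenced pull-down against sonicated input DNA of the same culture. HCT116, a human colorectal carcinoma line deficient in mismatch repair (MMR), was profiled in 7 groups of 2 replicates, and K562, a human leukaemia line, in 1 library (WT_K562). The non-treated groups were WT, which is HCT116 without the inhibitor, NT_UGI, which stably expresses the uracil-DNA glycosylase inhibitor UGI after retroviral transduction and sorting for EGFP, and NT_UGI_MMR, the same in an MMR-proficient HCT116 variant that carries an added copy of chromosome 3. The drug-treated groups all expressed UGI, in MMR-deficient cells (5FdUR_UGI and RTX_UGI) or in MMR-proficient cells (5FdUR_UGI_MMR and RTX_UGI_MMR). Treatment lasted 48 h, with 5FdUR at 20 µM and with raltitrexed (RTX) at 100 nM. The MMR-proficient cells differ from the others by a whole added chromosome, so its other genes cannot be told apart from MMR. The region files hold no read counts and the depth of each library is unknown.

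Thymidylate synthase makes the thymidylate that DNA synthesis needs from deoxyuridylate. RTX is a folate analogue that inhibits this enzyme, and 5FdUR is a nucleoside that cells convert into an inhibitor of it. The study states that 5FdUR also enters DNA directly as a fluorinated nucleotide, and that its method detects fluorouracil as well as uracil. These bases cannot be told apart in the regions found after 5FdUR. When thymidylate runs short, DNA polymerases build uracil into DNA in place of thymine, uracil-DNA glycosylase removes it, and UGI blocks that removal. Chromosome 17 is a gene-rich chromosome, with the HOXB homeobox cluster, the type I keratin cluster and the tumour suppressor genes BRCA1 and NF1. Of its 82.9 Mb of known bases, 45.3% were G or C, against 40.9% over chromosomes 1 to 22 and X.

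To show what DNA lay under the patterns described below, 1 stretch is shown for each of 2 patterns of calling on chromosome 17, the first marking the difference between the drugs and the second the difference by MMR status. Each sequence is the middle 200 bases of the longest stretch of its pattern, read 5′ to 3′ on the plus strand of GRCh38. Capitals mark thymine, the base that uracil replaces.
Inside regions of all 4 RTX libraries and of no 5FdUR library, in an intron of BPTF, chr17:67890101-67890300: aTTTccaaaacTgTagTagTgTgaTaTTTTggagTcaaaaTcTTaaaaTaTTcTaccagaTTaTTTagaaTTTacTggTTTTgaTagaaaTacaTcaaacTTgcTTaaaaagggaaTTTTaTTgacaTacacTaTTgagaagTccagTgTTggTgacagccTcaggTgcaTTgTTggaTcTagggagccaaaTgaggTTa
Inside regions of all 4 MMR-deficient drug-treated libraries and of no MMR-proficient one, at the edge of an exon of MYBBP1A and in the intron beside it, chr17:4543151-4543350: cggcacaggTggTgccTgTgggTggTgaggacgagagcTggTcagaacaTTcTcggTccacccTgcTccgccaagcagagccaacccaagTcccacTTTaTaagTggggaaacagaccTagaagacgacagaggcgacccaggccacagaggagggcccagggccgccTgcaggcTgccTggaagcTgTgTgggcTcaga
The RTX sequence held 67 T and 66 A in 200 bases with a GC content of 33.5%, and the MMR-deficient sequence 28 T and 47 A with 62.5%. Over all stretches of these patterns the GC content was 43.9% and 54.0%, so neither sequence has the typical base composition of its pattern. The stretches of each pattern of calling differed in extent. Those called in all 4 RTX and no 5FdUR libraries summed to 5.25 Mb over 3316 stretches, the longest being 52600 bases in BPTF. Those called in all 4 5FdUR and no RTX libraries summed to 0.998 Mb over 690 stretches. Bases called in all 8 drug-treated and no non-treated libraries came to 0.322 Mb, and bases called in all 6 non-treated and no drug-treated libraries to 0.586 Mb. Bases called in all 4 MMR-deficient and no MMR-proficient drug-treated libraries came to 0.377 Mb, and the reverse to 0.0106 Mb.

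The regions of chromosome 17 were sparse without drug and extensive after it. In the 6 non-treated HCT116 libraries the covered share was lowest in NT_UGI replicate 1 (3.52%), had a median of 3.64% and was highest in NT_UGI replicate 2 (4.18%), and K562 had 3.21%. In the RTX libraries it was 39.8% and 43.5% in RTX_UGI and 29.9% and 37.0% in RTX_UGI_MMR. In the 5FdUR libraries it was 30.5% and 22.2% in 5FdUR_UGI and 17.2% and 12.3% in 5FdUR_UGI_MMR. All 8 drug-treated libraries lay above all 6 non-treated ones, which is the contrast that chose the chromosome and carries no test. Over chromosomes 1 to 22 and X together the drug-treated libraries covered 17.2% to 19.1% and the non-treated libraries 11.0% to 11.4%, so chromosome 17 held from 0.685 to 2.29 times the genome's share after drug and from 0.317 to 0.374 times it without. The covered share depends on the calling threshold, which differed between files, and at a common log2 value of at least 0.34 it was 34.8%, 39.5%, 25.7% and 30.8% in the 4 RTX libraries and 25.3%, 8.33%, 7.28% and 0.314% in the 4 5FdUR libraries, the last below the 6 non-treated libraries, which had 2.05% to 3.94%.

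**Figure D1:**
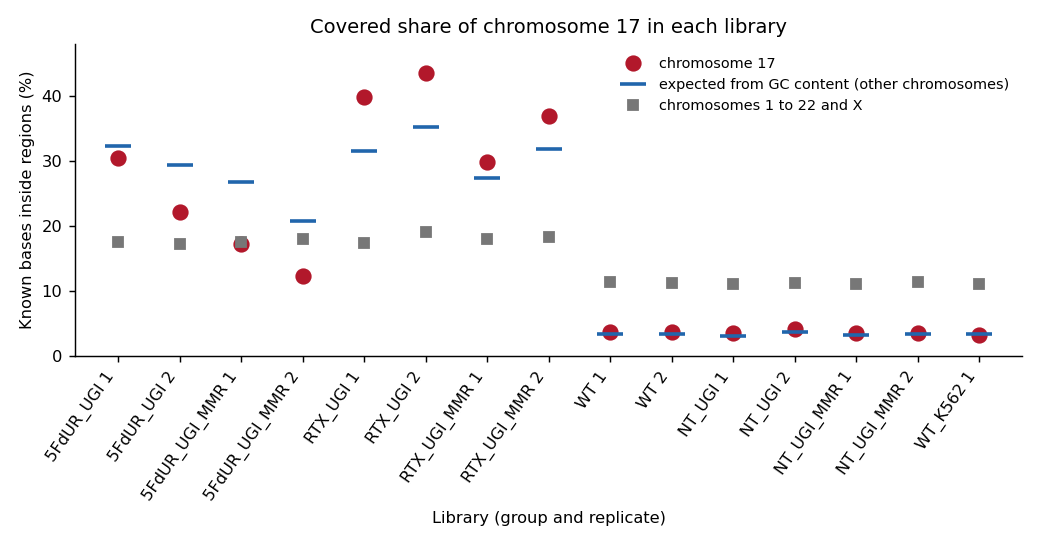
Covered share of chromosome 17 in each library (red circles; percent of known bases), the share expected from the GC content of its 100 kb bins using the other chromosomes of the same library (blue bars) and the share of chromosomes 1 to 22 and X (grey squares). The RTX libraries lay above the expected share, from 29.9% to 43.5%, and the 5FdUR libraries below it, from 12.3% to 30.5%.

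The level of chromosome 17 was also set against its base composition. When each 100 kb bin of chromosome 17 was given the mean covered share of bins of the same GC class on the other chromosomes in the same library, the expected share of chromosome 17 was 31.5% ± 3.21 (SD, n = 4) after RTX, against an observed 37.5% ± 5.68. After 5FdUR it was 27.3% ± 4.92 (SD, n = 4), against an observed 20.6% ± 7.77. The ratio of observed to expected ran from 1.09 to 1.26 in the RTX libraries and from 0.596 to 0.947 in the 5FdUR libraries, with no overlap. In the 6 non-treated libraries it was 1.10 ± 0.0311 (SD, n = 6). Over the 8 drug-treated libraries together the ratio averaged 0.959 ± 0.266 on chromosome 17 (SD, n = 8). On the other gene-dense chromosomes it averaged 0.632 ± 0.153 on chromosome 19 and 0.832 ± 0.0716 on chromosome 22 (SD, n = 8). After 5FdUR the averages on chromosomes 17, 19 and 22 were 0.735, 0.545 and 0.798 (n = 4). After RTX they were 1.18, 0.719 and 0.867 (n = 4). These ratios set chromosome 17 against other chromosomes, which is how it was chosen, and were not tested.

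More of the region bases lay in long regions after drug treatment. The median region length was 1500 to 1600 bases after RTX, 1000 to 1300 after 5FdUR and 1000 to 1300 without drug. Long regions are described by the N50, the region length at or above which lie 50% of the region bases of the chromosome. The N50 was 4400 to 4700 bases in the 6 non-treated libraries. It was 36300 and 66900 bases in RTX_UGI, 12900 and 23200 bases in RTX_UGI_MMR, 23700 and 10800 bases in 5FdUR_UGI and 9000 and 6000 bases in 5FdUR_UGI_MMR. The RTX and 5FdUR libraries overlapped, and their N50 differed by 1.43 on the log2 scale (exact two-sided permutation test, n = 4 and 4, p = 0.0857, adjusted p = 0.183 over 8 tests on chromosome 17). The longest single region, 509500 bases in RTX_UGI replicate 2 at chr17:50150801-50660300, spanned 15 protein-coding genes, among them CACNA1G, which encodes a T-type calcium channel, and ABCC3, an organic anion exporter. The longest region in 5FdUR_UGI_MMR replicate 1 (291100 bases) and that in 5FdUR_UGI_MMR replicate 2 (74000 bases) both lay in RBFOX3, a neuronal splicing factor gene that makes the NeuN antigen. In the non-treated libraries the longest regions, of 21700 to 46200 bases, held no protein-coding gene, and 5 of the 6 lay at 22.1 to 22.6 Mb beside the centromere.

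The arms were divided at the longest stretch without a region in any library, chr17:23111301-26696200. The long arm was covered more than the short arm by 15.3 to 17.3 percentage points in all 4 RTX libraries. In 5FdUR_UGI the difference was 11.3 and 3.54 points and in 5FdUR_UGI_MMR 1.0005 and -0.615 points. All RTX libraries lay above all 5FdUR libraries, with means of 16.3 ± 0.814 and 3.82 ± 5.30 points (SD, n = 4 each), at the smallest p that 4 against 4 libraries allow (exact two-sided permutation test, p = 0.0286, adjusted p = 0.183 over the 8 tests). The arm difference of MMR-proficient and MMR-deficient libraries differed by -4.10 points with both drugs pooled (exact permutation p = 0.457), and by -6.97 points without 5FdUR_UGI replicate 2 and -1.22 points without 5FdUR_UGI_MMR replicate 2. The covered share of the whole chromosome was 17.01 points higher after RTX than after 5FdUR (37.6% ± 5.77 and 20.5% ± 7.78, SD, n = 4 each), with 5FdUR_UGI replicate 1 above RTX_UGI_MMR replicate 1 (exact two-sided permutation test, p = 0.0571, adjusted p = 0.183). The mean of these same covered shares chose the chromosome, and it ranked first in all 4 RTX libraries, so the choice may have raised this difference. The permutation tests of this difference do not take the choice into account. Without 5FdUR_UGI replicate 1 the difference was 20.3 points and the libraries did not overlap (exact permutation p = 0.0286). MMR-proficient and MMR-deficient drug-treated libraries differed by -9.92 points in this share when both drugs were pooled (24.1% ± 11.4 and 34.015% ± 9.60, SD, n = 4 each, exact permutation p = 0.229). That test counts the difference between the drugs as spread, and within each drug both MMR-proficient libraries lay below both MMR-deficient ones, for which 2 against 2 libraries were not tested. Without 1 library the difference ran from -14.2 (without RTX_UGI_MMR replicate 2) to -6.00 points (without 5FdUR_UGI_MMR replicate 2).

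**Figure D2:**
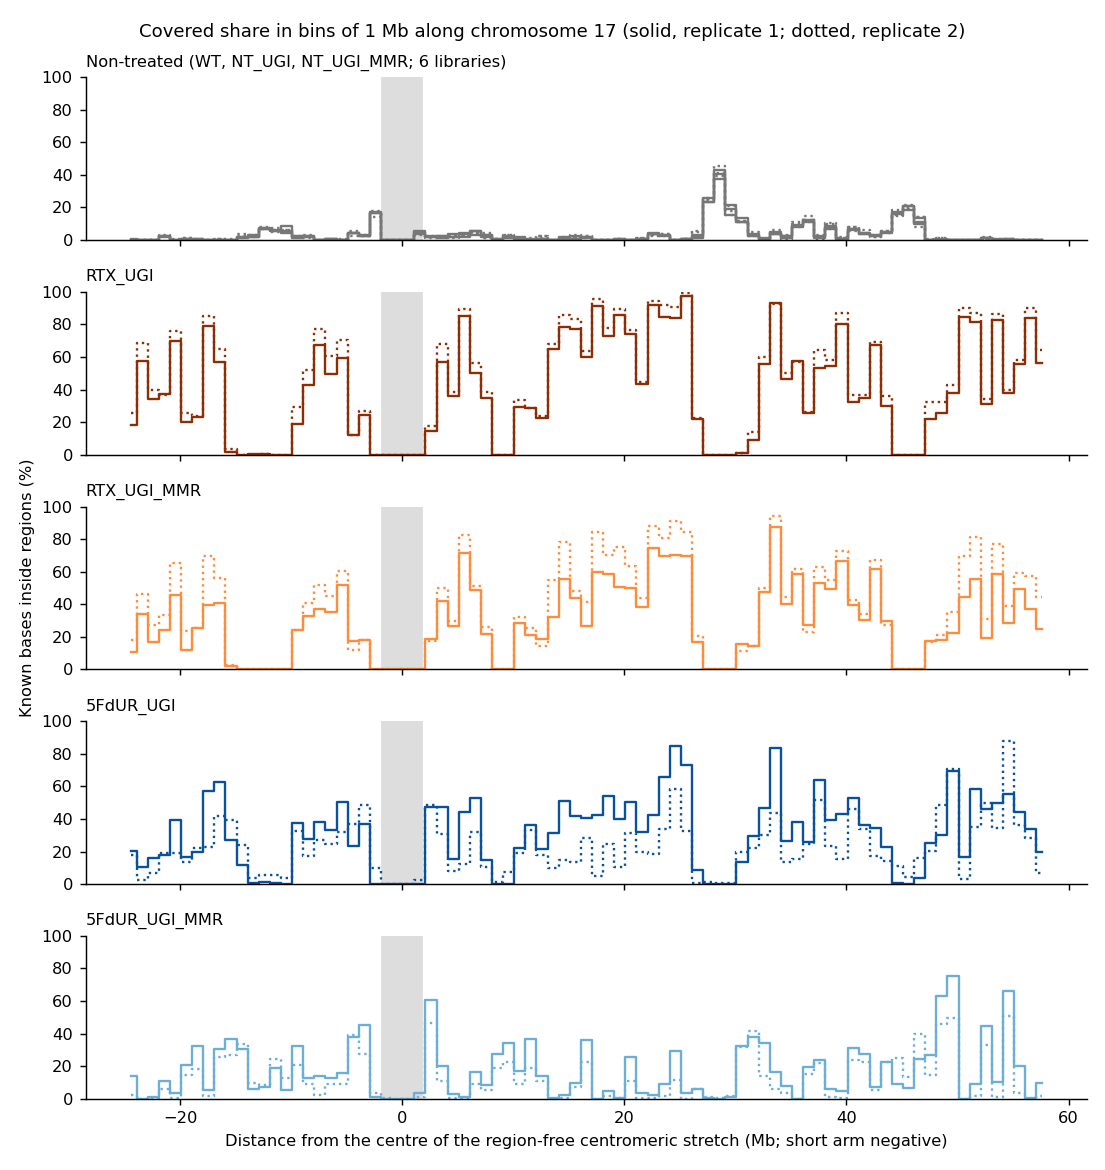
Covered share (percent of known bases) of each 1 Mb bin against its distance in Mb from the centre of the region-free stretch at the centromere (grey band), 1 panel for the 6 non-treated libraries and 1 for each drug-treated group, solid lines for replicate 1 and dotted lines for replicate 2. RTX_UGI reached 97.3% and 99.3% in a long-arm bin where 5FdUR_UGI_MMR was at 3.54% and 0.0200%, and the non-treated panel peaked where the RTX panels were at 0.

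Of the 83 bins of 1 Mb on chromosome 17, 80 passed the filter on low values (a mean covered share of at least 0.1% over the 14 HCT116 libraries), and the 3 others lay in the centromeric stretch. All 8 drug-treated libraries lay above all 6 non-treated ones in 44 bins and below them in 5, against 33.7% and 24.7% of the 2879 bins of all chromosomes, which is the contrast of the choice. At a common log2 value of at least 0.34 the balance turned, with 4 bins above and 12 below, against 2.96% and 37.1% of all bins. The direction of these counts thus depends on the log2 limit. The rule asks for all 8 drug-treated libraries, and at that limit 5FdUR_UGI_MMR replicate 2 covered 0.314% of the chromosome, below every non-treated library. The RTX libraries still covered 25.7% to 39.5%. The turn, here and in the gene counts at that limit below, may rest on 5FdUR_UGI_MMR replicate 2, which was not tested. The longest higher run was 7 bins at chr17:15000001-22000000, which overlap 81 protein-coding genes, the longest being SPECC1, NCOR1 and MPRIP. NCOR1 encodes a nuclear receptor corepressor. The covered share there was 16.6% to 47.0% in the drug-treated libraries and 1.302% to 2.09% in the non-treated ones. The longest lower run was 3 bins at chr17:52000001-55000000, overlapped by 5 protein-coding genes, some of which extend beyond it, and with a GC content of 36.8%. There the non-treated libraries ranged from 25.2% to 30.4% and K562 had 21.8%, while all 4 RTX libraries were at 0 and the 5FdUR libraries at 0 to 1.06%. The single bin at 22 Mb, beside the centromere, was at 14.1% to 17.99% without drug and 0 to 10.2% after it, and the bin at 70 Mb, with the potassium channel genes KCNJ2 and KCNJ16, at 18.5% to 21.3% and 0 to 13.3%. Among the 953 protein-coding genes tested (at least 5 kb long and past the same filter), 145 lay above in all 8 drug-treated libraries and 9 below, against 17.5% and 5.92% of the 16898 genes of all chromosomes. At the log2 limit of 0.34 these counts were 3 above and 15 below, and with an equal total of 300 Mb per library 13 above and 16 below. The shares over all genes at these other settings are not given here, so these counts describe chromosome 17 alone. The 9 genes below in the first count were MAP2K4, COX10, TOM1L1, STXBP4, BCAS3, BRIP1, INTS2, CEP112 and ABCA5. Lower bins had a median GC content of 37.2% and a median of 1 protein-coding gene, and higher bins 46.7% and 12.5 genes.

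Within the drug-treated libraries the 2 drugs marked different parts of the chromosome. RTX was higher than 5FdUR in 45 of the 80 tested bins and lower in 24, and 11 were not called (limma on arcsine square root covered shares, adjusted p under 0.05). Over all 2879 bins, 26.4% were called higher and 57.3% lower, and on chromosome 17 the order of the 2 directions was the other way round. At a common log2 value of at least 0.34 the calls were 48 higher and 2 lower, against 29.6% and 5.57% of all bins. Higher calls made up 65.2% of the calls in the first setting and 96.0% in the second. The lowest deposited log2 value was 0.25 and 0.14 in 5FdUR_UGI, 0.20 and 0.13 in 5FdUR_UGI_MMR and 0.25 to 0.27 in the RTX libraries. The common limit therefore removed more from the 5FdUR libraries called at lower thresholds, and the rise to 96.0% is not added support for RTX. The bins where RTX was higher held a median of 19 protein-coding genes at 47.0% GC and averaged 59.1% covered after RTX and 19.7% after 5FdUR. The bins where RTX was lower held a median of 3 genes at 42.4% GC and averaged 8.31% and 23.5%. Without 5FdUR_UGI replicate 1 the counts were 45 higher and 25 lower.

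**Figure D3:**
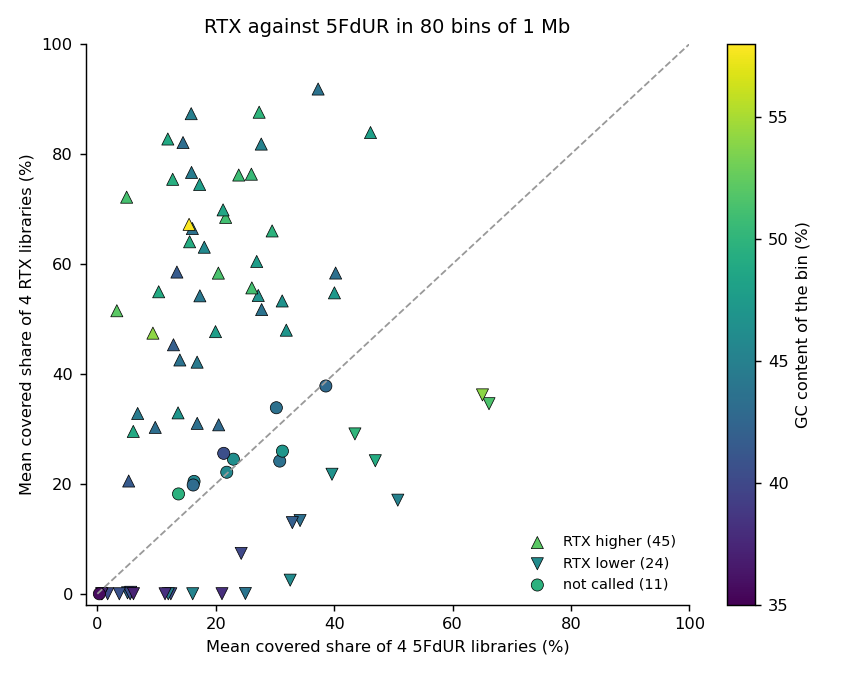
Mean covered share (percent) of the 4 RTX libraries against that of the 4 5FdUR libraries in the 80 tested 1 Mb bins of chromosome 17, coloured by GC content, with upward triangles for bins called higher after RTX (45), downward triangles for bins called lower (24) and circles for bins not called (11). The dashed line marks equal shares, and a row of lower bins lies at an RTX mean near 0.

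The longest run higher after RTX was 14 bins at chr17:38000001-52000000, with 344 protein-coding genes, the longest being CA10, SKAP1 and LINC02210-CRHR1. It was 73.4% and 77.4% covered in RTX_UGI, 51.1% and 66.0% in RTX_UGI_MMR, 47.0% and 21.5% in 5FdUR_UGI and 9.55% and 4.51% in 5FdUR_UGI_MMR. The 4 RTX libraries lay above the 4 5FdUR ones, and the non-treated libraries were at 0.955% to 1.54%. Within it, the bin at chr17:50000001-51000000 reached 97.3% and 99.3% in RTX_UGI and 69.6% and 84.1% in RTX_UGI_MMR. In 5FdUR_UGI that bin was 73.4% and 32.4% covered and in 5FdUR_UGI_MMR 3.54% and 0.0200% (limma adjusted p = 1.27e-06 for RTX against 5FdUR). The next run was 5 bins at chr17:28000001-33000000, with MYO1D, SSH2 and NF1 as the longest genes, where RTX averaged 50.2% and 5FdUR 17.2%. Of the runs of 4 bins, the first along the chromosome was chr17:1000001-5000000, with RAP1GAP2, SMG6 and ABR, where RTX averaged 44.5% and 5FdUR 9.64%.

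The longest run lower after RTX was 6 bins at chr17:9000001-15000000, with 31 genes at 42.4% GC, the longest being DNAH9, which encodes an axonemal dynein heavy chain, STX8, a syntaxin, and SHISA6. There the RTX libraries were at 0.415% to 0.683% and the 5FdUR libraries at 6.88%, 13.6%, 17.5% and 19.5%, and the non-treated libraries at 3.56% to 4.74% lay between them. Of the runs of 3 bins, the first along the chromosome were chr17:20000001-23000000, with 10 genes and 11.97% after RTX and 26.4% after 5FdUR on average, and chr17:54000001-57000000, with 6.76% and 19.3%. Near the end of the long arm the bins alternated. The bin at 74 Mb was 22.2% to 42.6% covered after RTX and 49.4% to 75.2% after 5FdUR (limma adjusted p = 9.91e-05), and the bin at 75 Mb 44.3% to 90.2% after RTX and 0 to 16.6% after 5FdUR (limma adjusted p = 1.01e-07). The bin at 79 Mb was again lower after RTX, at 28.4% to 39.8% against 50.9% to 87.9% (limma adjusted p = 0.0011).

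The order of the bins along the chromosome was alike among the RTX libraries and less so among the 5FdUR libraries. Across the 80 bins, which share their positions and base composition, Pearson's r was 0.921 to 0.996 between RTX libraries. It was 0.729 between the replicates of 5FdUR_UGI and 0.903 between those of 5FdUR_UGI_MMR. Between 5FdUR_UGI and 5FdUR_UGI_MMR libraries it ran from 0.0209 to 0.740, and the RTX range includes the pairs of that kind. 5FdUR_UGI replicate 1 stood apart, since its r with the 4 RTX libraries, 0.753 to 0.813, was above its r with any other 5FdUR library. It shared 73.6% of its region bases with RTX_UGI replicate 1 and 52.2% with its own replicate, and these bases were 56.4% of those of RTX_UGI replicate 1 and 71.9% of those of its replicate. 5FdUR_UGI_MMR replicate 2 shared 17.8% of its bases with RTX_UGI replicate 1, which were 5.49% of the bases of the latter. Spearman's rho with the GC content of the bins was 0.444 to 0.638 in the RTX libraries, 0.535 and 0.404 in 5FdUR_UGI, 0.0774 and -0.204 in 5FdUR_UGI_MMR and -0.860 to -0.879 in the non-treated libraries, and with the number of genes it was 0.601 to 0.756 in the RTX libraries, 0.516 and 0.201 in 5FdUR_UGI and -0.171 and -0.390 in 5FdUR_UGI_MMR. These correlations are over bins and are given as a description.

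Protein-coding genes took 54.6% of the known bases of chromosome 17. Both drugs marked genes and the bases between them, with genes covered more than the rest after RTX and less after 5FdUR. After RTX the covered share inside genes was 45.5%, 49.5%, 34.7% and 42.7% in the 4 libraries and that between genes 33.04%, 36.3%, 24.2% and 30.2%. After 5FdUR it was 28.9%, 20.2%, 15.2% and 9.57% inside genes and 32.5%, 24.5%, 19.5% and 15.6% between them. The difference of genic and intergenic share was 12.1 ± 1.13 points after RTX and -4.56 ± 1.02 after 5FdUR (SD, n = 4 each), with no overlap (exact two-sided permutation test, p = 0.0286, the smallest that 4 against 4 libraries allow). This comparison was added after the data were seen. In the non-treated libraries genes were also covered less than the rest, at 2.43% to 3.07% against 4.65% to 5.51%.

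Of the 1186 protein-coding genes of chromosome 17, 953 were at least 5 kb long and passed the filter on low values. RTX was higher than 5FdUR in 668 of them and lower in 113 (limma, adjusted p under 0.05), against 47.6% and 22.7% of the 16898 genes tested on all chromosomes. Without 5FdUR_UGI replicate 1 the counts were 669 and 112. In the fit on the 8 drug-treated libraries alone, added after the data were seen, they were 590 and 87, and 675 genes were called in the same direction in both fits. In 350 genes all RTX libraries lay above all 5FdUR libraries and in 47 below, against 26.8% and 8.56% of all genes tested. Neighbouring genes often lie in the same region, so these counts are not counts of independent events.

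The genes with the largest differences were covered almost end to end by one drug and hardly at all by the other. RECQL5, which encodes a RecQ DNA helicase (ENSG00000108469, chr17:75626845-75667189), was 100% covered in all 4 RTX libraries and 3.94%, 1.49%, 0 and 0 in the 5FdUR libraries (limma adjusted p = 1.78e-07). CEP95, a centrosomal protein gene, was 90.1% to 96.3% covered after RTX and at 0 in all 4 5FdUR libraries. BPTF, which encodes the largest subunit of the NURF chromatin remodeller and holds the RTX sequence printed above, was 94.2%, 100%, 95.3% and 99.4% covered after RTX and 17.2%, 2.01%, 0 and 0 after 5FdUR, so its highest 5FdUR value came from 5FdUR_UGI replicate 1 (limma adjusted p = 1.77e-06). CNTD1, EFCAB13, CPD (carboxypeptidase D) and C17orf113 had differences of 91.3 to 96.1 points. Of these, EFCAB13 was also covered at 14.6% to 27.3% and CPD at 7.03% to 19.9% without drug, CEP95 reached 5.62% and BPTF 2.96% there, and RECQL5, CNTD1 and C17orf113 were at 0 in all 6 non-treated libraries.

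In the opposite direction, CD300LB and CD300A, receptor genes of myeloid cells, were 96.1% to 100% covered in the 4 5FdUR libraries. After RTX they were 0 to 24.3% and 0 to 14.1% covered (limma adjusted p = 1.09e-06 and 1.36e-06). NOS2, the inducible nitric oxide synthase gene, was 83.9%, 95.0%, 94.7% and 80.1% covered after 5FdUR and 4.57%, 0, 2.97% and 0 after RTX (limma adjusted p = 2.47e-06), with no overlap. LYRM9 was 70.2% to 100% covered after 5FdUR and at 0 in all 4 RTX libraries. GSG1L2, DHRS7C and GLP2R, the receptor of an intestinal growth peptide, lay close together in the 6-bin run of the short arm, with differences of 73.4 to 83.9 points. TTYH2 was 84.5% to 100% covered after 5FdUR and 5.37% to 24.4% after RTX. None of these 8 genes was covered in a non-treated library. At a log2 value of at least 0.34, CD300LB and GLP2R kept their direction and were not called (limma adjusted p = 0.121 and 0.0617).

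**Figure D4:**
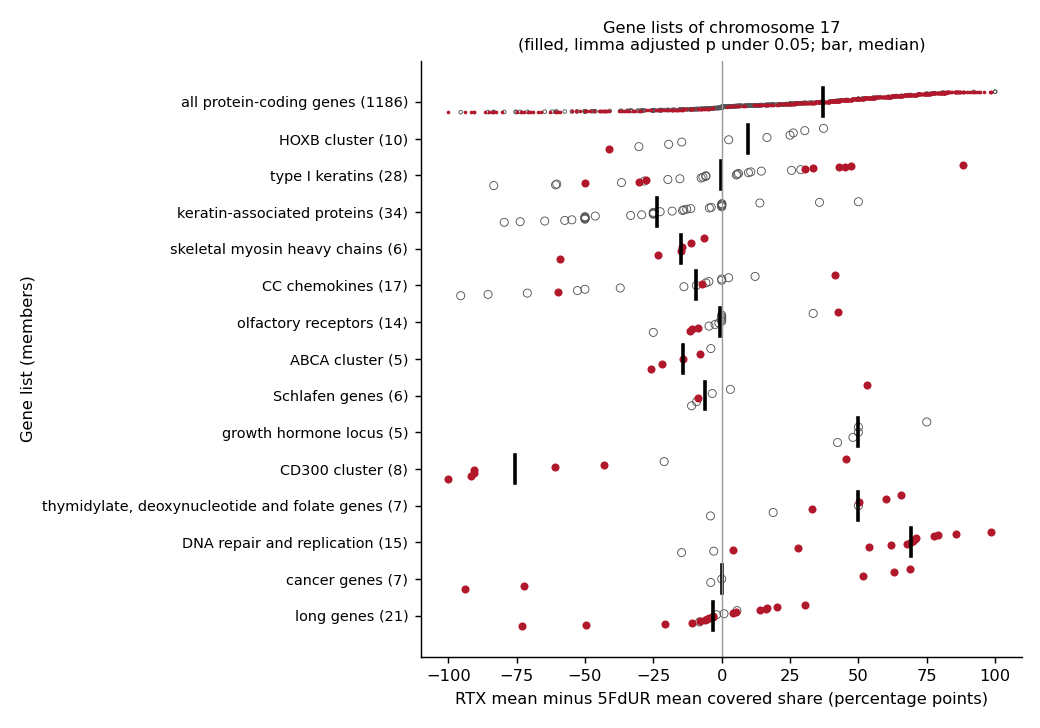
Difference of mean covered share, RTX minus 5FdUR (percentage points), for every member of 14 gene lists and for all 1186 protein-coding genes of chromosome 17. Filled points passed limma at an adjusted p under 0.05, open points did not or were not tested, and bars mark medians. DNA repair and replication genes lay mostly to the right (median 69.1 points) and the CD300 genes to the left (median -75.7 points), beside a median of 37.1 points for all genes.

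Among genes of DNA repair and replication, 13 of 15 were higher after RTX, none was lower and 2 were not called (limma, adjusted p under 0.05). Their median difference was 69.1 points, beside 37.1 points over all genes of the chromosome, of which 70.1% of those tested were called higher. BRCA1, a core gene of homologous recombination, was 77.9%, 75.9%, 58.4% and 70.8% covered after RTX and at 0 in all 4 5FdUR libraries (limma adjusted p = 4.11e-07). RPA1, the large subunit of the single-strand binding protein, was 85.0% to 98.2% covered after RTX and 28.3%, 0, 0 and 0 after 5FdUR. CDC6, a licensing factor of replication origins, was 59.9% to 100% and 0 to 31.3%, and TOP2A, a DNA topoisomerase, 84.4% to 100% and 0 to 80.6%, so that both reached their highest 5FdUR value in 5FdUR_UGI replicate 1. BRIP1, a helicase partner of BRCA1, was called higher at a low level (limma adjusted p = 0.0282). It was 0.217% to 7.84% covered after RTX and 0 to 1.36% after 5FdUR, and its mean without drug was 30.9%. LIG3 and RAD51D, the 2 members not called, were at 0 in all 4 RTX libraries, and without 5FdUR_UGI replicate 1 limma called both lower.

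The genes of thymidylate, deoxynucleotide and folate metabolism are the pathway that both drugs act on, and 4 of the 6 tested were higher after RTX and none lower (limma, adjusted p under 0.05), a share close to the 70.1% called higher among all tested genes of the chromosome. TK1, which salvages thymidine, was 100%, 100%, 88.3% and 83.8% covered after RTX. After 5FdUR it was 93.2% and 16.8% covered in 5FdUR_UGI and at 0 in both 5FdUR_UGI_MMR libraries (limma adjusted p = 0.000342). NT5M, a mitochondrial deoxynucleotidase, and the nucleoside diphosphate kinases NME1 and NME2 had differences of 50.233, 59.949 and 33.011 points, and in all 3 the 5FdUR_UGI_MMR libraries were at 0 to 2.85%. NT5C, a cytosolic deoxynucleotidase, was too short to test and was 100% covered in both RTX_UGI libraries and 0 in the other drug-treated ones. SHMT1, which charges folate with one-carbon units, was 0.395% to 21.4% covered after RTX and 2.24% to 34.1% after 5FdUR, with overlap and no call. SLC46A1, the proton-coupled folate transporter, was 62.6% to 100% and 28.3% to 100% covered and was not called. In the fit on the drug-treated libraries alone, 2 of the 4 calls were made.

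The cancer gene list divided. RNF43 and AXIN2 both restrain Wnt signalling and lay on opposite sides, since RNF43 was 87.0% to 94.7% covered after RTX and 0 to 55.1% after 5FdUR, and AXIN2 8.16% to 31.2% after RTX and 90.5% to 100% after 5FdUR (limma adjusted p = 0.000167 and 5.30e-06). SOX9, a transcription factor of intestinal crypts, was at 0 in all 4 RTX libraries and 100%, 100%, 100% and 75.9% covered after 5FdUR (limma adjusted p = 1.94e-06). ERBB2, a receptor tyrosine kinase gene, was 70.8%, 86.6%, 55.7% and 81.0% covered after RTX and 41.4%, 0, 0 and 0 after 5FdUR (limma adjusted p = 0.000246). NF1, a negative regulator of Ras, was 49.7% to 64.0% covered after RTX and 0.592% to 12.8% after 5FdUR, with the 6 non-treated libraries at 8.67% to 18.1% (limma adjusted p = 2.76e-05). SEPTIN9 and MAP2K4 were not called.

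The counts for clustered gene families below stand beside 70.1% called higher and 11.9% called lower among all 953 tested genes of the chromosome. The 6 skeletal myosin heavy chain genes, at chr17:10300865-10657309, were all lower after RTX (limma, adjusted p under 0.05), with 0 in all 4 RTX libraries and a median 5FdUR mean of 14.8%. MYH13 had the highest values among them, 26.9%, 60.4%, 80.3% and 68.4% after 5FdUR. MYH1 and MYH4 were at 0 in both 5FdUR_UGI libraries as well, so their calls rest on 5FdUR_UGI_MMR alone. MYH2, MYH3 and MYH8 were at 0 in 5FdUR_UGI replicate 1. In the fit on the drug-treated libraries alone, 4 of the 6 were called lower. Of the 8 CD300 genes, 6 were lower after RTX and CD300LF was not called, and CD300LG, which lies apart from the others at chr17:43847148-43863639, was higher. Of the 5 ABCA transporter genes 4 were lower after RTX, and these were covered without drug as well, with a median non-treated mean of 26.9%. ABCA5 reached a mean of 60.4% without drug and 1.98% over the 8 drug-treated libraries. The 4 HOXB genes tested included 1 lower, HOXB6, and 3 not called, and the 18 type I keratin genes tested gave 6 higher, 3 lower and 9 not called. Of the 34 keratin-associated protein genes 1 was tested and it was not called, and the medians over all 34 were 0 after RTX and 25% after 5FdUR. The 5 growth hormone and placental lactogen genes were too short to test. All 5 were 100% covered in all 4 RTX libraries and in 5FdUR_UGI replicate 1, and their median was 100% in 5FdUR_UGI replicate 2 and 0 in both 5FdUR_UGI_MMR libraries. Among CC chemokine genes 1 of 5 tested was higher (CCL5) and 2 lower, among olfactory receptor genes 1 of 6 higher (OR4D1) and 3 lower, and among Schlafen genes 1 of 6 higher (SLFN14) and 1 lower (SLFN5). Several chemokine, keratin and growth hormone genes are near-identical copies, and ambiguous reads were removed upstream, so their values are uncertain. The 21 genes of at least 300 kb gave 7 higher and 10 lower. RBFOX3 was 0.479% to 5.65% covered after RTX and 26.7%, 91.5%, 99.4% and 88.1% after 5FdUR.

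MMR-proficient and MMR-deficient cells were compared separately after 5FdUR, after RTX and without drug. After 5FdUR the MMR-proficient libraries were lower than the MMR-deficient ones in 41 of 80 bins and higher in 12 (limma, adjusted p under 0.05), against 20.1% lower and 30.7% higher over all bins. Without 5FdUR_UGI replicate 1 these counts were 36 and 7, without 5FdUR_UGI replicate 2 the calls rose from 53 to 64 in all, and in the fit on the 8 drug-treated libraries alone 33 and 7. At a log2 value of at least 0.34 there were 10 lower and no higher, against 5.01% and 0.174% of all bins. That limit left 5FdUR_UGI_MMR replicate 2 with 0.314% of chromosome 17 covered. Higher calls therefore had little room, and their absence at that limit cannot be read as a result. After RTX 6 bins were lower and 1 higher, against 2.33% and 4.65%, and in the fit on drug-treated libraries alone 1 and 1. Without drug limma called no bin on chromosome 17, 0% of all bins, and none had an unadjusted p under 0.05, while in 17 bins the 2 and 2 libraries did not overlap, 6 higher and 11 lower, against 13.9% and 13.4% of all bins. The difference of the MMR effect between the drugs was called in 15 bins, 10 with the more negative effect after 5FdUR and 5 with the more positive (9.93% and 11.7% of all bins). In the fit on the drug-treated libraries alone it was called in 1.

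**Figure D5:**
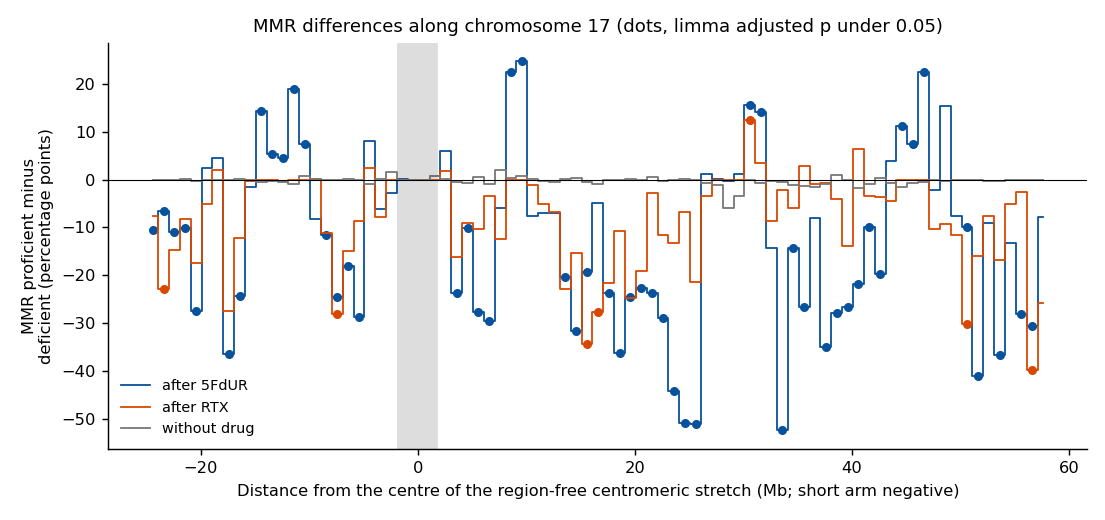
Difference of mean covered share between MMR-proficient and MMR-deficient cells (percentage points, 2 libraries each) in 1 Mb bins after 5FdUR (blue), after RTX (orange) and without drug (grey), against distance in Mb from the centre of the centromeric stretch. Dots mark bins with a limma adjusted p under 0.05, 53 after 5FdUR and 7 after RTX.

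The longest run lower in MMR-proficient cells after 5FdUR was 9 bins at chr17:42000001-51000000, inside the RTX-high run, with SKAP1, LINC02210-CRHR1 and KANSL1 as the longest genes. It was 53.9% and 25.95% covered in 5FdUR_UGI and 8.77% and 3.02% in 5FdUR_UGI_MMR, beside 80.6% and 84.5% in RTX_UGI and 60.1% and 75.7% in RTX_UGI_MMR. Runs of 6 bins at chr17:62000001-68000000, with CEP112, PRKCA and TANC2, and of 5 bins at chr17:1-5000000 were also lower. The higher runs included 5 bins at chr17:10000001-15000000, 3 bins at chr17:69000001-72000000, with MAP2K6, ABCA10 and ABCA9, and 2 bins at chr17:33000001-35000000, with ASIC2, an acid-sensing ion channel gene, TMEM132E and CCT6B. In the run with ASIC2 5FdUR_UGI_MMR was at 31.0% and 20.7%, 5FdUR_UGI at 0.005% and 4.41%, the RTX libraries at 0 to 0.01% and the non-treated libraries at 0.690% to 1.735%. The MMR effect there was also called different between the drugs.

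Of the 953 genes, MMR-proficient cells were lower in 304 and higher in 39 after 5FdUR (limma, adjusted p under 0.05), against 21.6% and 10.3% of all genes tested. The fit on drug-treated libraries alone called 120 lower and 20 higher, and 139 of its calls were shared. Leaving out 5FdUR_UGI_MMR replicate 2 gave 214 calls and leaving out 5FdUR_UGI replicate 2 gave 546. LHX1 and DLX3, homeobox genes of embryonic patterning, SOST, which encodes the Wnt antagonist sclerostin, and TMEM92 were 100% covered in both 5FdUR_UGI libraries and at 0 in both 5FdUR_UGI_MMR libraries (limma adjusted p = 0.000359, 4.69e-05, 2.84e-05 and 0.000359, in the order LHX1, DLX3, SOST, TMEM92). They were the first 4 along the chromosome of 7 called genes with exactly these values, the others being WFIKKN2, USH1G and CBX8. After RTX LHX1, DLX3, SOST and TMEM92 were 100% covered in both RTX_UGI libraries and 18.7% to 100% in RTX_UGI_MMR. These 4 are short genes of 5054 to 10080 bases, and at a log2 value of at least 0.34 SOST and TMEM92 were not called (limma adjusted p = 0.397 for each). HOXB1, HOXB2 and HOXB4, which were too short to test, had the same pattern after 5FdUR, with 100% in both 5FdUR_UGI libraries and 0 in both 5FdUR_UGI_MMR libraries. In the other direction, TMEM100 was 1.77% and 0 covered in 5FdUR_UGI and 40.8% and 49.6% in 5FdUR_UGI_MMR (limma adjusted p = 9.64e-05), and at 0 in every RTX and non-treated library. SPACA3, TBC1D3B and ENSG00000266728 were higher by 43.955, 70.3 and 62.1 points, with 5FdUR_UGI replicate 2 between the other libraries. TBC1D3B belongs to a recently duplicated family, its reads may be shared with other copies, and in the fit on drug-treated libraries alone it and SPACA3 were not called (limma adjusted p = 0.0603 and 0.0821). At a log2 value of at least 0.34 none of these 3 was called (limma adjusted p = 0.836 for TBC1D3B and 0.397 for the others). That limit left 5FdUR_UGI_MMR replicate 2 with 0.314% of the chromosome covered, so a higher call had little room there. Among the gene lists, the MMR-proficient cells were lower after 5FdUR in 4 of 6 thymidylate, deoxynucleotide and folate genes, in 3 of 15 repair and replication genes (TOP2A, RAD51C and PPM1D) and in 2 of 4 HOXB genes, and higher in 3 of 6 myosin genes, 3 of 5 ABCA genes and 6 of 21 long genes, beside 31.9% lower and 4.09% higher among all genes of the chromosome. Of these the fit on the drug-treated libraries alone called 0, 1, 1, 2, 1 and 4.

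The base composition of the regions separated drug-treated from non-treated libraries. The GC content of chromosome 17 region bases was 34.2% to 34.9% in the non-treated libraries, 34.5% in K562, 45.9% to 47.7% after RTX and 45.9% to 49.8% after 5FdUR. RTX and 5FdUR libraries differed by -1.09 percentage points and MMR-proficient and MMR-deficient ones by -1.55, neither past the threshold (exact two-sided permutation tests, n = 4 and 4, p = 0.314 and 0.114, adjusted p = 0.359 and 0.183). The N50 of MMR-proficient and MMR-deficient libraries differed by -1.32 on the log2 scale (exact permutation p = 0.114). These MMR tests take both drugs together, and within each drug both MMR-proficient libraries were below both MMR-deficient ones in N50 and in GC content. Bases called in all 4 RTX libraries made up 20.9% of the chromosome and bases called in all 4 5FdUR libraries 2.96%, and 66.9% of the chromosome was called in at least 1 drug-treated library.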

How the data were processed

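The authors aligned reads to GRCh38 with BWA 0.7.17-r1194, processed alignments with SAMtools 1.9-50 and Picard, removed ambiguous reads and blacklisted stretches, and computed with deepTools 3.2.1 a smoothed log2 ratio of enriched over input coverage in 100 bp bins. Bins above a threshold set per file were joined into the deposited regions, each with its deposited log2 value. The threshold was tuned so that replicates of a condition had near-equal total length, which limits what totals over the whole genome can show. No read counts are held, so depth and counting error are unknown. From the regions the covered share of known bases was computed per chromosome, 1 Mb bin and protein-coding gene of at least 5 kb (GENCODE 44). Features with a mean share of at least 0.1% over the 14 HCT116 libraries entered limma 3.58.1 (R 4.3.3) on arcsine square root shares, 1 fit over 7 groups, with Benjamini-Hochberg adjustment over all chromosomes and a threshold of 0.05. The spread of each feature is estimated over all 14 libraries, and the non-treated ones are at 0 in many genes. The adjusted p-values for drug and MMR therefore rest in part on non-treated libraries, and the fit on drug-treated libraries alone made fewer calls. Single values of the chromosome were compared by exact two-sided permutation tests with Python 3.11.15 and NumPy 2.4.6. Tested on simulated data for RTX against 5FdUR over 2879 bins, the fit recovered 199 of 200 changed bins and called 11 unchanged ones. The simulated noise was normal, with the same spread per bin in all libraries, and most bins were unchanged. The deposited data are not like this, so the simulation cannot give the error rate of the calls reported here. The study describes its 2 replicates of each HCT116 sample as independent biological ones, sequenced on either of 2 platforms, and which library ran on which is not given in the sources used here. Named genes were the 8 in each direction with the largest RTX and 5FdUR difference among called genes of at least 10 kb without overlap, the 4 in each direction for MMR after 5FdUR among called genes, the longest genes of called runs and the members of the gene lists. The chromosome, lists and tests were chosen with earlier results of these data known. Alternatives were regions of at least 5 kb, a log2 limit, an equal total length, 500 kb bins, untransformed shares, a replicate block and leaving out each library. The fit on the 8 drug-treated libraries alone was chosen after seeing the data. The 7 merged region files were not used for tests, and inputs and mock pull-downs were not analysed here. Some genes and sequences that these rules select are not reported here.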

Additional observations from a re-analysis of the deposited data

Results flagged for a closer look

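Among the 6 non-treated HCT116 libraries the covered share of chromosome 17 in NT_UGI replicate 2, 4.18%, lay far above the other 5, which ran from 3.52% to 3.73%. Of 20 groups of values looked at in this way 1 stood out, and chance alone gives about 1 in 20. The MMR effect differed between 5FdUR and RTX in 15 of the 80 tested 1 Mb bins of chromosome 17 by the interaction term in limma (5 higher and 10 lower after 5FdUR), and with as many higher as lower bins when 5FdUR_UGI_MMR replicate 2, RTX_UGI replicate 1 or RTX_UGI_MMR replicate 2 was left out (4 and 4, 2 and 2, 3 and 3), and in 1 bin in the fit on the 8 drug-treated libraries alone.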

How the results depend on the processing

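The 9 single values of the chromosome and the named genes kept their direction under every alternative run, while some balances of counts turned. At a log2 value of at least 0.34 the RTX and 5FdUR difference in covered share was 22.4 points and in GC content -3.39 points, and with an equal total of 300 Mb per library the share difference was 12.6 points (exact permutation p = 0.0286 for each). The log2 limit removed more from the 5FdUR libraries called at lower thresholds. It left 5FdUR_UGI_MMR replicate 2 with 0.314% of chromosome 17 covered, which limits the values and counts at that limit that use this library. The choice of the chromosome used the covered shares, which these p-values do not take into account. Leaving out 1 library gave 14.3 to 20.3 points for the share, -1.82 to -0.516 for GC content and 11.04 to 15.02 for the arm difference, and for MMR -14.2 to -6.00 points for the share and -6.97 to -1.22 for the arm difference. Called bins for RTX against 5FdUR were 145 with 500 kb bins. For MMR after 5FdUR they were 10 at the log2 limit, 121 with 500 kb bins and 38 to 64 without 1 library. For MMR after RTX they were 1 at the log2 limit, 15 at the equal total, 19 with 500 kb bins, 11 with untransformed shares, 2 in the fit on drug-treated libraries alone, 50 by no overlap (5 higher and 45 lower, against 29.9% and 17.4% of all bins) and 1 to 13 without 1 library, the lowest without RTX_UGI replicate 2 and the highest without RTX_UGI_MMR replicate 2. Without drug 17 bins did not overlap. The difference of the MMR effect between the drugs was called in 0 bins at the log2 limit, 25 at the equal total, 40 with 500 kb bins, 1 in the fit on drug-treated libraries alone and 4 to 42 without 1 library, the lowest without RTX_UGI replicate 1 and the highest without 5FdUR_UGI replicate 2, with as many higher as lower bins without 5FdUR_UGI_MMR replicate 2 (4 and 4), RTX_UGI replicate 1 (2 and 2) or RTX_UGI_MMR replicate 2 (3 and 3), and a rule of no overlap is not defined for it. Drug-treated and non-treated libraries did not overlap in 16 bins at the log2 limit (4 higher and 12 lower, against 44 and 5) and 76 of 500 kb (67 and 9). Of the genes, 397 did not overlap between RTX and 5FdUR. Calls for MMR after 5FdUR were 206 with regions of at least 5 kb, 72 at the log2 limit, 141 at the equal total, 140 in the fit on drug-treated libraries alone and 214 to 546 without 1 library. Genes without overlap between drug-treated and non-treated libraries numbered 35 (30 higher), 18 (3 higher) and 29 (13 higher) under the first 3 of these settings and 155 to 272 without 1 library, the highest without 5FdUR_UGI_MMR replicate 2. The matching shares over all genes are not given here. Same-numbered libraries of 21 group pairs correlated in their deviations at -0.616 to 0.574, with 4 above 0.1, so the numbers were not taken to pair samples. With a replicate block the arm difference was 12.5 points and the genic difference 16.7 points (exact permutation p = 0.125 for each, the smallest that 4 pairs allow), bin counts were 69, 52, 6, 0 and 14 and gene counts 772 and 321. Other causes of these changes were not tested. For the named genes 300 values kept direction and call and 11 lost the call. Depth is unknown, so what it limits cannot be given.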
